A study of Saccharomyces cerevisiae with 4 samples.

Results

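The 10 yeast genes of trehalose and glycogen metabolism followed here are TPS1, TPS2, TPS3, TSL1, NTH1, GSY1, GSY2, GPH1, GLC3 and GDB1. They were chosen by name, as the ORFs YBR126C, YDR074W, YMR261C, YML100W, YDR001C, YFR015C, YLR258W, YPR160W, YEL011W and YPR184W in that order, and all 10 were found among the 6678 open reading frames (ORFs) of the table. The table came from sequencing of total RNA from Saccharomyces cerevisiae, with transcript levels as RPKM, which is reads scaled to ORF length and to the reads of the library. Wild type was strain SEY6210, of mating type alpha, with leu2 mutations 3 and 112 and ura3-52 next to his3-∆200, trp1-∆901 and suc2-∆9, as well as lys2-801 and GAL. The mutant was strain JMY047, an SEY6210 derivative carrying pho23∆::HIS5, so the marker alleles of the parent are shared by all groups. The HIS5 marker is in the deletion groups only, so its presence and the loss of PHO23 cannot be told apart. Each genotype was taken in mid-log growth in YPD, a rich medium, and 2 h after a shift to SD-N, a medium without nitrogen, called starved below. These 4 groups had 1 library each, and the lack of nitrogen is confounded with all else that changed between the media, so these cannot be told apart. In such bulk RNA, fewer cells that express a gene and less RNA per cell cannot be told apart either. Pho23 belongs to Rpd3L, a histone deacetylase complex that DNA-binding partners such as Ume6 bring to genes.

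Trehalose is a disaccharide and glycogen a branched glucose polymer, and yeast builds up both when growth slows or stress sets in. Tps1 joins UDP-glucose and glucose 6-phosphate to trehalose 6-phosphate, Tps2 removes the phosphate, and Tps3 and Tsl1 are the regulatory subunits of that complex. Nth1, the neutral trehalase, splits trehalose into glucose. Gsy1 and Gsy2 are paired isoforms of glycogen synthase, Glc3 adds the branches, Gph1 is the phosphorylase that releases glucose 1-phosphate, and Gdb1 removes branches. Many genes of both pathways are known targets of Msn2 and Msn4, transcription factors that bind the stress response element and are held back by protein kinase A.

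Upstream sequence is shown first because all 10 genes carry the core of this element. The motif AGGGG was searched on both strands of the R64 genome in the 600 bases before each start codon. It was present upstream of all 10 genes, against 39.7% of 5979 protein-coding ORFs, and at least 2 matches lay upstream of 9 of them, against 10.7%. GDB1 had 1 match, and TPS1 had 6. The 32 matches were divided evenly between strands, 16 and 16, and lay 152 to 545 bases before the start codon. Annotated neighbours cover 1 of the TPS1 matches and 2 of the TSL1 matches. In the window from 250 bases before to 50 bases after the start of the coding sequence the count was 7 of 10 genes, against 21.6% of ORFs. That shorter window was the planned one, and the 600 bases were chosen once the data were known. A match is a run of letters, not a site shown to be bound.

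**Figure D1:**
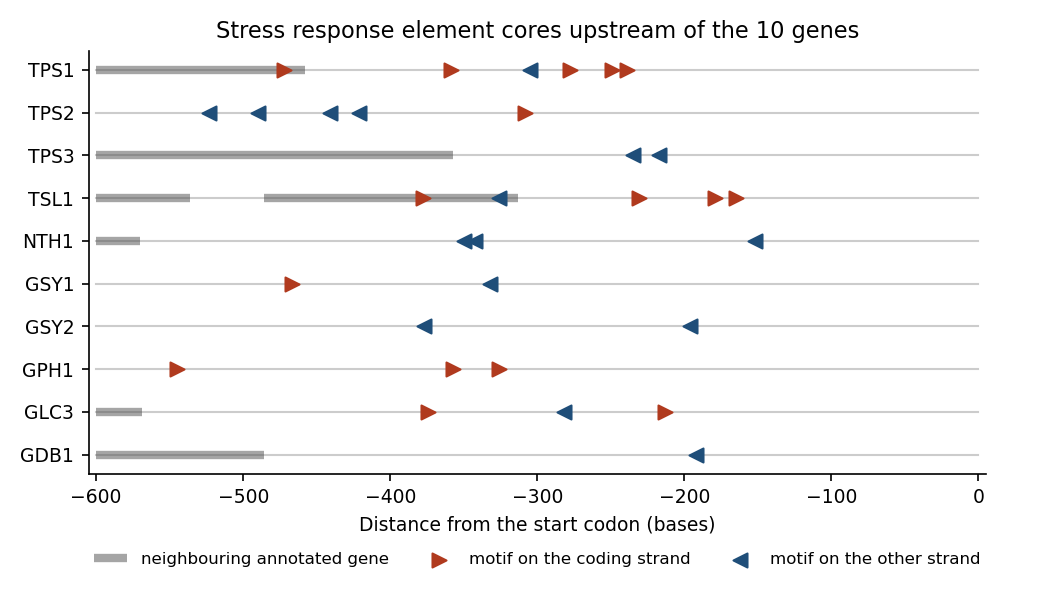
Positions of AGGGG matches in the 600 bases before the start codon of each gene (horizontal axis, distance in bases), with arrowheads for the strand and grey bars for annotated neighbouring genes. All 10 genes have a match, and the match nearest to a start codon lies 152 bases before it.

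The following sequences are the 300 bases that begin 400 bases before the start codon, 5′ to 3′ on the coding strand of the R64 genome (RefSeq), with AGGGG or its reverse complement CCCCT in capitals. The window was chosen after the matches had been seen. It holds a match in all 10 genes, against 23.5% of 5980 ORFs. GSY1 and GPH1 are shown as the genes 2-fold lower in the starved deletion, GSY2 as the isoform gene of GSY1, and TPS1 and TSL1 because they carry 5 matches each. The TPS1 window is chrII:490493-490792 on the minus strand, TSL1 is chrXIII:70224-70523 (plus), GSY1 is chrVI:176492-176791 (minus), GSY2 is chrXII:660316-660615 (plus) and GPH1 is chrXVI:860906-861205 (plus). The first 88 bases of the TSL1 window are part of the annotated gene YML100W-A.
TPS1: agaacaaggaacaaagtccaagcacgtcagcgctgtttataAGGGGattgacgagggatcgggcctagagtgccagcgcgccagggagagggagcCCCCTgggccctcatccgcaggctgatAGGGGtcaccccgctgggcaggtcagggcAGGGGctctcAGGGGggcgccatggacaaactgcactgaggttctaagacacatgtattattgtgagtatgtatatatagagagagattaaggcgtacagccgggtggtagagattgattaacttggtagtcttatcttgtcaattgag
TSL1: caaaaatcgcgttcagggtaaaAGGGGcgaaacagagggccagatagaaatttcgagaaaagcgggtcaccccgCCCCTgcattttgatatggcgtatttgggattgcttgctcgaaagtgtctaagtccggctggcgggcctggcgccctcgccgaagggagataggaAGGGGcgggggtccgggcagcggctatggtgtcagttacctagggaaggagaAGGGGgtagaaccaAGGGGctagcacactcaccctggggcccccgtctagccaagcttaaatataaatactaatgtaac
GSY1: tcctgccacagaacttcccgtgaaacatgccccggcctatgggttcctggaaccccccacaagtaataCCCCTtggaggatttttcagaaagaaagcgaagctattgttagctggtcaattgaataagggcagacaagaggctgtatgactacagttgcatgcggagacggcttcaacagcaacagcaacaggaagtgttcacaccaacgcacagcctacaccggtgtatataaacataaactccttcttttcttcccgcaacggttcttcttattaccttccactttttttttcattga
GSY2: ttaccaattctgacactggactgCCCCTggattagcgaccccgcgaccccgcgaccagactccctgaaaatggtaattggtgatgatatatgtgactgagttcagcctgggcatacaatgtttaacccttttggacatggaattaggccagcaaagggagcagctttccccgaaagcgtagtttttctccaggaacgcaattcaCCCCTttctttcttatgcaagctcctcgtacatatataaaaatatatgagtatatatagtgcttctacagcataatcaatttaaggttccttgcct
GPH1: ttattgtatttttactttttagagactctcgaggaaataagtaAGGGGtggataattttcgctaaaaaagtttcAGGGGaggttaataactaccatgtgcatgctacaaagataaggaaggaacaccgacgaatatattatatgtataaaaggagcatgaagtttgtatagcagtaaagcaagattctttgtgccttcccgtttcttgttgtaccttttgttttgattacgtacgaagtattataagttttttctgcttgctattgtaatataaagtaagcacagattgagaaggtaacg

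Of the printed windows, those of TPS1 and TSL1 had 5 matches each, which is why they were printed. GSY1 had 1 match, and GSY2 and GPH1 had 2 each. Among the genes not printed, TPS2 and GDB1 also had 1 match in this window, TPS3 had 2, and NTH1 and GLC3 had 3. In the 600 bases TPS2 had 5 matches, GPH1 had 3 and GSY1 had 2. Other motifs were less shared. GATAAG, the site of the GATA factors of nitrogen control, was found in the 600 bases before TPS1, NTH1, GPH1 and GDB1, which is 4 of 10 genes against 26.8% of ORFs. CCCCGC, a core of sites for the glucose repressor Mig1, lay upstream of TPS1, TSL1, GSY2 and GLC3, 4 of 10 against 6.82%. Both matches of CCCCGC in TSL1 share a base with a match of the stress element core. The post-diauxic shift element bound by Gis1, searched as AGGGAT, was found upstream of TPS1, TPS2 and GSY2, 3 of 10 against 18.2%. AGCCGCC, the core of the Ume6 site, was found upstream of 0 of 10, against 4.97%.

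In R64 each of the 10 coding sequences is 1 uninterrupted exon that overlaps no other annotated gene. The trehalose genes are TPS1 at chrII:488905-490392 (minus), TPS2 at chrIV:593893-596583 (plus), TPS3 at chrXIII:790205-793369 (minus), TSL1 at chrXIII:70624-73920 (plus) and NTH1 at chrIV:450220-452475 (minus). The glycogen genes are GSY1 at chrVI:174265-176391 (minus), GSY2 at chrXII:660716-662833 (plus), GPH1 at chrXVI:861306-864014 (plus), GLC3 at chrV:133120-135234 (plus) and GDB1 at chrXVI:902044-906654 (plus).

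PHO23 had an RPKM of 12.3 in growing and 23.4 in starved wild type, and of 0.13 and 0.0546 in the deletion, which fits the genotype labels. The deposited RPKM sums ranged from 883544 to 1101484, and the smallest steps among low values give a rough depth of 19600000 to 27500000 reads. Intervals below are exact binomial 95% intervals from that depth. They cover counting error only, and no value has a spread over cultures behind it. Log2 folds were taken after adding 1 to each RPKM, so those of weakly expressed genes are understated. Calls needed a 2-fold difference and an RPKM of 10 or more on either side of the comparison. ORFs meeting the latter are called eligible. An ORF under 10 on 1 side is eligible only through the side where it is higher, so for it that direction is built in. The starvation and genotype comparisons draw on the same 4 libraries and so are not independent.

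In wild type in YPD, 9 of the 10 lay below the middle of all ORFs, TPS1 being above 52.3% of them, and together the 10 took 0.0103% of the summed RPKM. After the shift to SD-N they took 0.0717%, and in the deletion 0.0145% before and 0.0525% after it. The RPKM of the 4 trehalose synthase subunits summed to 63.4 growing and 236 starved in wild type, and to 102 and 226 in the deletion. For the glycogen synthases and the branching enzyme the sums were 19.3 and 99.8 in wild type, and 19.1 and 72.4 in the deletion. For phosphorylase and debranching enzyme they were 6.58 and 117 in wild type, and 5.11 and 57.1 in the deletion. As a ratio of starved to growing sums in wild type the glycogen breakdown genes stood highest of the role groups, and as a ratio between genotypes their starved sums were furthest apart.

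**Figure D2:**
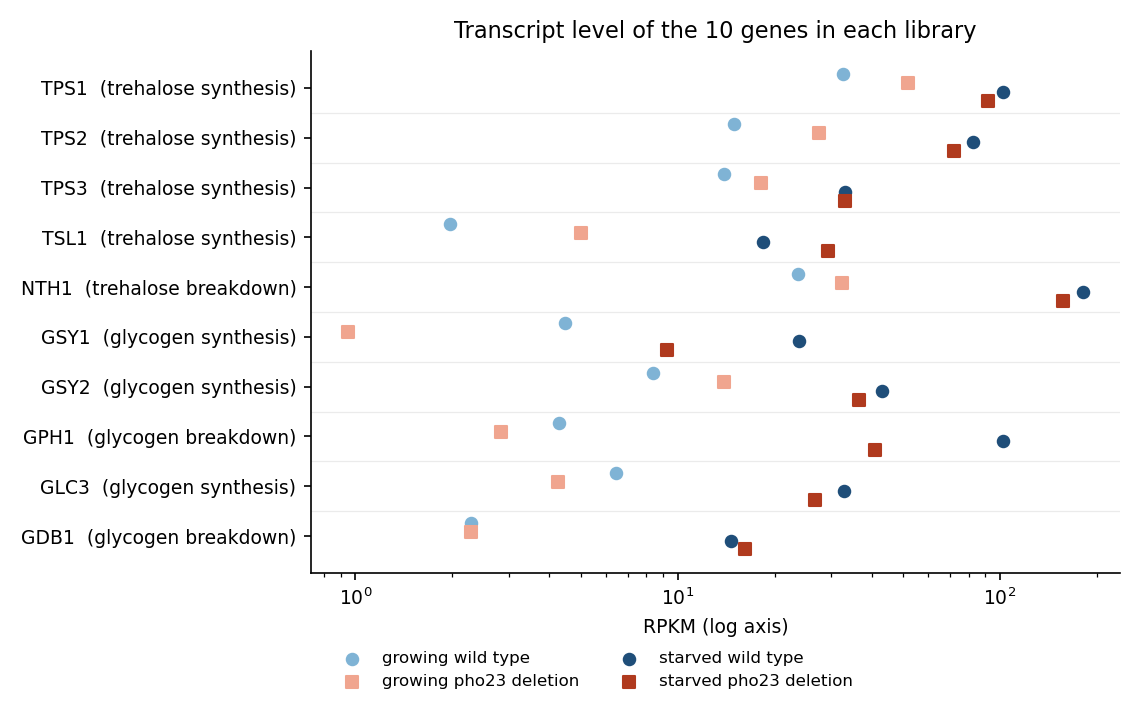
RPKM (horizontal log axis) of each gene in the 4 libraries, with circles for wild type and squares for the pho23 deletion, light for growing and dark for starved cells. Each point is 1 library. Both starved points lie to the right of both growing points for every gene, and GSY1 in the growing deletion is the lowest point at 0.947.

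TPS1, which encodes trehalose 6-phosphate synthase, had RPKM values of 32.6 in YPD and 102 in SD-N for wild type, and 51.7 and 91.6 for the deletion. It was the most abundant of the 10 transcripts in both growing libraries. The starved libraries lay close together, and the growing libraries were further apart, with the deletion higher. The ratio of deletion to wild type was 1.59 growing (interval 1.47 to 1.71) and 0.897 starved (0.852 to 0.944). TPS2, for trehalose 6-phosphate phosphatase, went from 15 to 82.3 with the shift in wild type and from 27.5 to 72 in the deletion. It had the same layout, with genotype ratios of 1.83 growing (1.70 to 1.98) and 0.875 starved (0.838 to 0.913).

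The regulatory subunits differed from each other. TPS3 had RPKM values of 13.9 in YPD and 33.0 in SD-N for wild type, and 18.1 and 33.1 for the deletion. The starved values of TPS3 were equal within counting error (ratio 1, 0.946 to 1.07), and the growing ratio was 1.31 (1.21 to 1.41). TSL1 went from 1.96 to 18.4 in wild type and from 5 to 29.2 in the deletion. It was higher in the deletion in both conditions, at a ratio of 2.55 growing (2.11 to 3.08) and 1.59 starved (1.48 to 1.71). Within a library, the TSL1 to TPS3 ratio of RPKM was 0.141 (wild type) and 0.276 (deletion) before the shift. After starvation it was 0.557 in wild type and 0.882 in the deletion, so that both subunit transcripts were nearest to each other in the starved deletion.

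NTH1, for neutral trehalase, had RPKM values of 23.7 in YPD and 181 in SD-N for wild type, and 32.4 and 157 for the deletion. It was the most abundant of the 10 in both starved libraries. The genotype ratio was 1.37 growing (1.27 to 1.47) and 0.867 starved (0.841 to 0.895). The TPS1 to NTH1 ratio, synthesis against breakdown, was 1.38 and 1.59 in the growing libraries of wild type and deletion. It was 0.564 and 0.583 in the starved ones, below 1 in both genotypes.

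The paired glycogen synthase genes went opposite ways between genotypes in growing cells. GSY1 had RPKM values of 4.46 in YPD and 23.8 in SD-N for wild type, and 0.947 and 9.29 for the deletion. The deletion was lower in both conditions, at a ratio of 0.212 growing (0.154 to 0.285, with about 218 and 55 reads) and 0.390 starved (0.347 to 0.437). GSY2, the isoform gene known as predominant, went from 8.37 to 43.1 in wild type and from 13.9 to 36.4 in the deletion. Its ratio was 1.66 growing (1.47 to 1.87) and 0.846 starved (0.790 to 0.904). The GSY1 to GSY2 ratio was therefore close in both wild-type libraries, at 0.532 growing and 0.553 starved. It was 0.0682 in the growing and 0.255 in the starved deletion. The coding sequences are 73.2% identical over 2113 aligned bases, with 20 bases as the longest shared run, and how reads matching both were counted is not given in the sources used here.

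GLC3, for the branching enzyme, had RPKM values of 6.45 in YPD and 32.9 in SD-N for wild type, and 4.26 and 26.7 for the deletion. It was lower in the deletion in both conditions, with ratios of 0.660 (0.555 to 0.780) and 0.813 (0.752 to 0.879). GPH1, for glycogen phosphorylase, went from 4.29 to 102 in wild type and from 2.82 to 40.9 in the deletion. No other of the 10 had so large a ratio of starved to growing RPKM in wild type. Its genotype ratio was 0.659 growing (0.547 to 0.792) and 0.4 starved (0.381 to 0.420). GDB1, for the debranching enzyme, went from 2.29 to 14.6 in wild type and from 2.29 to 16.2 in the deletion. The growing libraries were alike within counting error (ratio 0.998, 0.836 to 1.19), and the starved ratio was 1.11 (1.03 to 1.19). The GPH1 to GDB1 ratio, both breakdown enzymes, was 1.87 and 1.24 in growing wild type and deletion, and 7 and 2.53 in the starved libraries.

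The comparison of starved with growing wild type asks what the shift to SD-N did to these transcripts. All 10 genes passed the filter and all 10 were at least 2-fold higher. TSL1, GSY1, GSY2, GPH1, GLC3 and GDB1 were under an RPKM of 10 in YPD and passed only through the starved library. For them a rise was a condition of passing, so their calls are no separate support. Among all 5956 eligible ORFs the share called higher was 32.7%, with 13.3% lower. The median log2 fold of the 10 was 2.24, against 0.53 over all eligible ORFs, whose quartiles were -0.27 and 1.27. GPH1 had the largest log2 fold, 4.29, a 23.9-fold RPKM ratio (21.1 to 27.1) that exceeded 98.7% of eligible ORFs. NTH1 followed at 2.89, TSL1 at 2.71 and TPS2 at 2.38. GDB1 at 2.25, GSY2 at 2.23, GSY1 at 2.19 and GLC3 at 2.18 lay within 0.1 of each other. TPS1 was at 1.62 and TPS3 lowest at 1.19, which was above 72.8% of eligible ORFs. Scaling moved the level of all ORFs here. The median over all eligible ORFs was 0.02 with median-of-ratios, 0.26 with upper-quartile and 0.84 with equal-sum scaling, while that of the 10 genes was 1.77, 1.99 and 2.53. The split of all called ORFs, 1950 higher and 795 lower as deposited, became 1156 and 1246, 1482 and 996, and 2638 and 601. TPS3 dropped under 2-fold with median-of-ratios and with upper-quartile scaling, leaving 9.

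In the deletion the same shift gave 7 of 9 eligible genes at least 2-fold higher, against 22.4% of 5863 eligible ORFs, with 0 lower against 8.77%. Of these 7, TSL1, GPH1, GLC3 and GDB1 were under an RPKM of 10 in YPD and passed the filter only through the starved library. GPH1 was again highest at a log2 fold of 3.46, a 14.5-fold ratio (12.6 to 16.8). GLC3 was at 2.40, GDB1 at 2.39, TSL1 at 2.33, NTH1 at 2.24, TPS2 at 1.36 and GSY2 at 1.33. TPS3 at 0.84 and TPS1 at 0.81 were under 2-fold. GSY1, at a log2 fold of 2.40, was not counted because its starved RPKM of 9.29 stayed under 10. The median over the 10 was 2.29, against 0.34 over all eligible ORFs. The all-ORF median was 0.02, 0.16 and 0.51 under median-of-ratios, upper-quartile and equal-sum scaling, and the count of the 10 genes was 7 under each. The all-ORF split of 1311 higher and 514 lower became 853 and 920, 1030 and 750, and 1581 and 365.

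**Figure D3:**
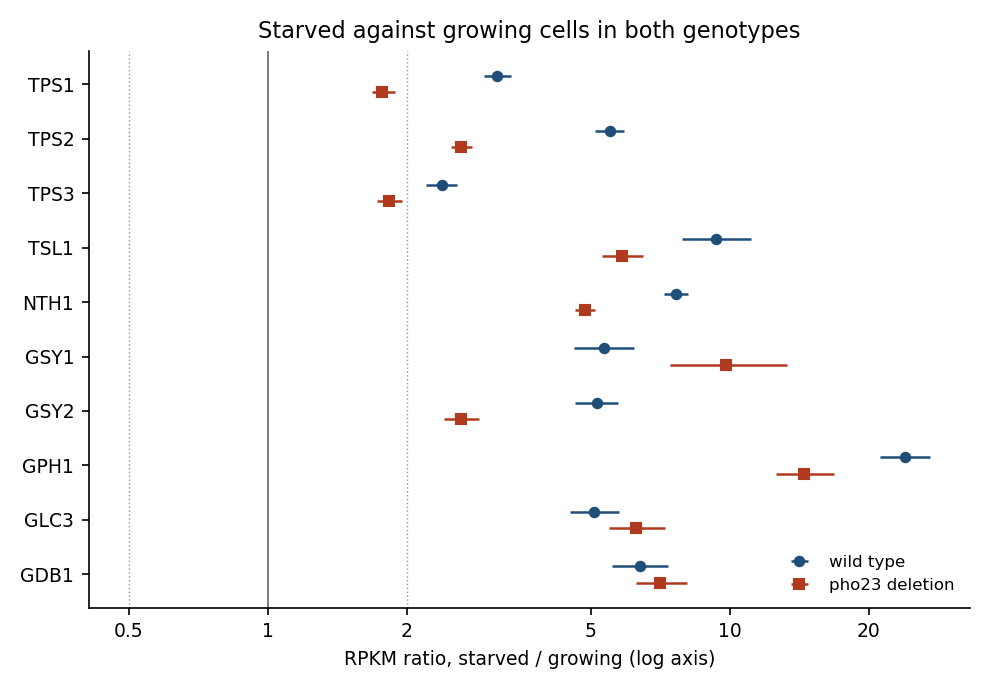
RPKM ratio of starved to growing cells (horizontal log axis) for each gene in wild type (circles) and in the pho23 deletion (squares), with 95% counting intervals as bars and dotted lines at 0.5 and 2. All 10 wild-type points lie right of 2, and TPS1 and TPS3 of the deletion lie left of it.

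The starvation log2 fold was smaller in the deletion than in wild type for 7 of the 10 genes, against 63.9% of all 6034 ORFs with an RPKM of 10 in at least 1 library. The difference, deletion minus wild type, had a median of -0.51 over the 10 and -0.15 over all, with quartiles of -0.43 and 0.15. It was -1.02 for TPS2, -0.90 for GSY2, -0.83 for GPH1, -0.80 for TPS1 and -0.64 for NTH1. TSL1 at -0.38 and TPS3 at -0.36 lay inside the quartiles. GSY1 and GLC3, both at 0.22, lay just above them, and GDB1 at 0.14 inside. Over the pseudocounts and scalings tried, the value of GSY1 ranged from -0.34 to 0.77 and that of TSL1 from -0.64 to 0.03, so their signs depend on the setting, and GDB1 ranged from 0.00 to 0.30. With 1 library per group these differences were not tested.

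In growing cells the comparison asks how the genes differ without Pho23 while nitrogen is plentiful. Under the filter 5 of the 10 were eligible (TPS1, TPS2, TPS3, NTH1 and GSY2), and 0 reached 2-fold, against 3.95% of 5439 eligible ORFs higher and 2.08% lower, or 6.03% in either direction. These 5 had log2 folds of 0.65, 0.83, 0.36, 0.44 and 0.67, and the median over all eligible ORFs was 0.07. All 5 lay above 0, as did 58.3% of all eligible ORFs. GSY2, at an RPKM of 8.37 in wild type, passed only through the deletion library, so its sign was set by the filter. Over all 10 genes, with those not eligible included, the median was 0.40 and 6 lay above 0. The other 5 did not reach the minimum in YPD in either genotype. Among them TSL1 was at 1.02, GSY1 at -1.49, GLC3 at -0.50 and GPH1 at -0.47, while GDB1 had equal levels. Of the 1239 ORFs that low, 2.82% were 2-fold higher and 6.78% lower, while at any RPKM the shares over all ORFs were 3.74% and 2.95%. With a pseudocount of 5 the log2 fold of TSL1 was 0.52 and that of GSY1 -0.67. The deletion thus had the higher value for the 5 trehalose genes and GSY2, and the lower for GSY1, GPH1 and GLC3. The all-ORF split of 215 higher and 113 lower became 170 and 150 with median-of-ratios scaling and 182 and 142 with upper-quartile scaling.

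In starved cells all 10 were eligible and 2 were at least 2-fold lower in the deletion, GPH1 at -1.30 and GSY1 at -1.27. GSY1, at an RPKM of 9.29 in the deletion, passed the filter only through wild type, so its direction was set by the filter. The share of all 5976 eligible ORFs called lower was 4.13%, and 5.30% were called higher, against 0 of the 10. GPH1 lay above 2.54% and GSY1 above 2.63% of the eligible ORFs. The next lowest folds were -0.29 for GLC3, -0.24 for GSY2, -0.20 for NTH1, -0.19 for TPS2 and -0.16 for TPS1. TPS3 was at 0.01, GDB1 at 0.14 and TSL1 highest at 0.64. The median of the 10 was -0.20, against -0.04 over all eligible ORFs with quartiles of -0.29 and 0.23, so that 7 of them lay within the middle range or at its edge. GPH1 and GSY1 were past 2-fold under each of the 3 scalings and 2 other pseudocounts tried. The all-ORF split of 317 higher and 247 lower became 256 and 348 with equal-sum scaling and 374 and 208 with median-of-ratios scaling.

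**Figure D4:**
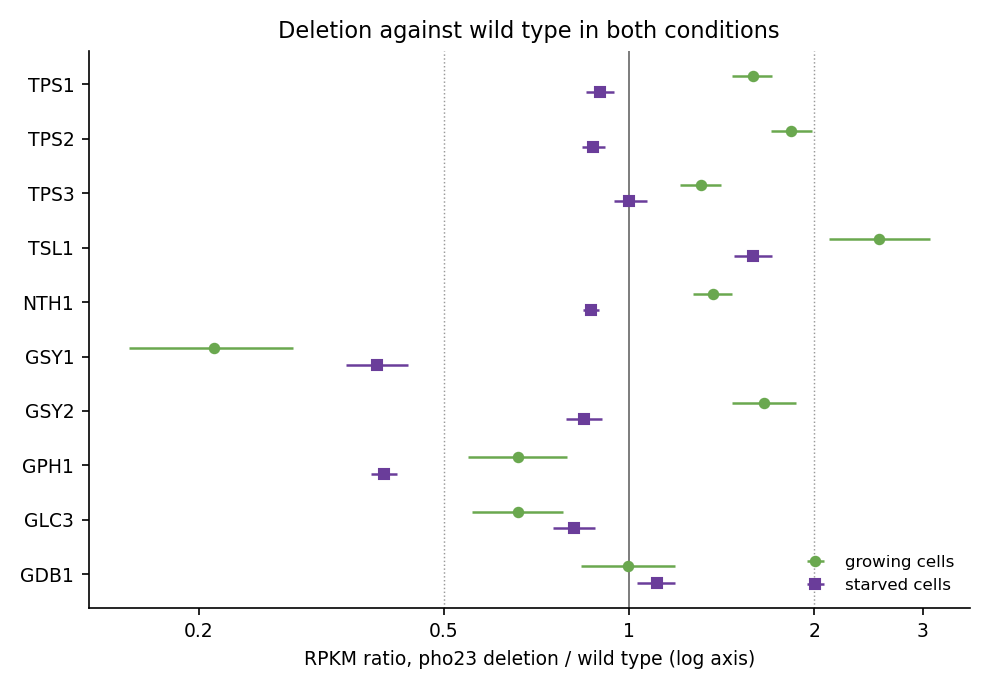
RPKM ratio of the pho23 deletion to wild type (horizontal log axis) for each gene in growing (circles) and starved cells (squares), with 95% counting intervals as bars and dotted lines at 0.5 and 2. GSY1 lies left of 0.5 in both conditions and GPH1 in starved cells, while TPS1, TPS2, NTH1 and GSY2 lie right of 1 in growing and left of 1 in starved cells.

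TPS1, TPS2, NTH1 and GSY2, 4 of the 10 genes, had genotype ratios above 1 in growing and below 1 in starved cells, with both counting intervals off 1. The same pattern was found in 13.3% of 5560 ORFs with an RPKM of 10 in at least 1 library and a known length, and the reverse pattern in 8.24%. With median-of-ratios scaling the interval of TPS1 reached 1, which left 3 genes, against 6.31% of ORFs. With equal-sum scaling TPS3 joined, which gave 5 genes against 21.0%, and with upper-quartile scaling 4 stood against 9.06%. The starved folds of the 4 genes lay inside the quartiles of all eligible ORFs. The growing and starved comparisons share no library. GSY1, GPH1 and GLC3 were lower in the deletion in both, and TSL1 was higher in both. The glycogen genes did not share a direction, since GSY2 was at 0.67 in growing cells and GDB1 at 0.14 in starved cells.

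Other genes that act next to these steps were read from lists of enzymes, regulators and hexose phosphate supply. Of 8 further enzymes and glycogenins, 5 were eligible in growing cells and 8 in starved cells. In each condition 1 was at least 2-fold higher in the deletion, both times GLG2. The shares of all eligible ORFs called higher were 3.95% growing and 5.30% starved. GLG2 encodes a glycogenin, the protein primer of glycogen synthesis, and had RPKM values of 11.2 in YPD and 28.5 in SD-N for wild type, and 51.7 and 74.4 for the deletion. Both deletion libraries were above both wild-type libraries. The log2 genotype folds were 2.11 and 1.35, above 99.7% and 97.2% of eligible ORFs. Its partner GLG1 went from 12.4 to 84.6 in wild type and from 23.8 to 56.1 in the deletion, with genotype folds of 0.89 growing and -0.58 starved. The GLG2 to GLG1 ratio was accordingly 0.907 and 0.337 in growing and starved wild type, and 2.17 and 1.33 in the deletion. The glycogenin pair and the synthase pair were thus both weighted differently in the deletion, toward GLG2 and toward GSY2.

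ATH1, the acid trehalase, had 1.81 (wild type) and 8.40 (deletion) in YPD, under the minimum of 10, and had 18.0 and 18.2 in SD-N. Its growing ratio of 4.64 (3.91 to 5.57) was thus not counted. PGM2, the main phosphoglucomutase, was at 5.66 and 12.3 growing (log2 fold 0.99) and at 45.8 and 63.3 starved (0.46). UGP1, which makes the UDP-glucose used by both pathways, was at 88.4 and 101 growing and at 123 and 79.6 starved, a starved log2 fold of -0.62. NTH2, a homologue of NTH1, was at 0.07 and -0.49. SGA1, a glucoamylase known from sporulation, was at -0.15 and 0.03. After starvation 6 of the 8 were at least 2-fold higher in wild type, against 32.7% of all eligible ORFs, and 5 in the deletion, against 22.4%, with medians of 2.17 and 1.06. SGA1 led with starvation folds of 3.20 and 3.37.

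Of 11 regulators of glycogen enzymes, 10 were eligible in starved cells and 8 in growing cells. In starved cells 0 reached 2-fold between genotypes, against 5.30% of all eligible ORFs higher and 4.13% lower. In growing cells 1 reached 2-fold, against 6.03% in either direction. This was PCL8, a cyclin of the Pho85 kinase that targets glycogen synthase, at an RPKM of 6.31 and 14.8 (log2 fold 1.11). Its fellow cyclin gene PCL10 was at 0.76, PCL7 at 0.73 and PCL6 at 0.63, under 2-fold, where 58.3% of all eligible ORFs were above 0. PHO85 itself was at 0.22. In starved cells PCL8 was at -0.22 and PCL10 at -0.01, and the glycogen-targeting subunits PIG1 and PIG2 were lowest at -0.54 and -0.51. Above 0 lay 3 of the 11 regulators, among them GAC1 at 0.12 and GIP2, which was not eligible, at 0.22. GLC7, for the phosphatase that Pig1 and Pig2 direct, was at -0.09 growing and -0.06 starved, with an RPKM from 289 to 365 in all 4 libraries. After starvation 7 of the 10 eligible regulators were at least 2-fold higher in wild type, against 32.7% of all eligible ORFs. In the deletion 3 of 10 were, PCL7, PIG2 and PIG1, which is near the 22.4% of all.

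The 5 genes of hexose phosphate supply, all eligible, had 1 member at 2-fold between genotypes, HXK1, which was lower in both conditions. The shares of all eligible ORFs called lower were 2.08% growing and 4.13% starved. HXK1, a hexokinase, had RPKM values of 73.7 in YPD and 51.6 in SD-N for wild type, and 33.7 and 20.9 for the deletion. Its log2 genotype folds were -1.11 growing and -1.27 starved. GLK1, the glucokinase, stood at 66.2 and 133 growing, a fold just short of the 2-fold rule after the pseudocount, and at 241 and 233 starved. EMI2 was at 0.53 and 0.11, and PGI1, the phosphoglucose isomerase, at -0.12 and -0.15. HXK2, the main hexokinase on glucose, was at 0.01 and 0.32. It was the 1 gene of the 5 at least 2-fold lower after starvation in wild type, at -1.28, against 13.3% of all eligible ORFs. GLK1 and EMI2 were at least 2-fold higher there, at 1.85 and 1.57, against 32.7% of all eligible ORFs. In the deletion the starvation fold of HXK2 was -0.97.

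**Figure D5:**
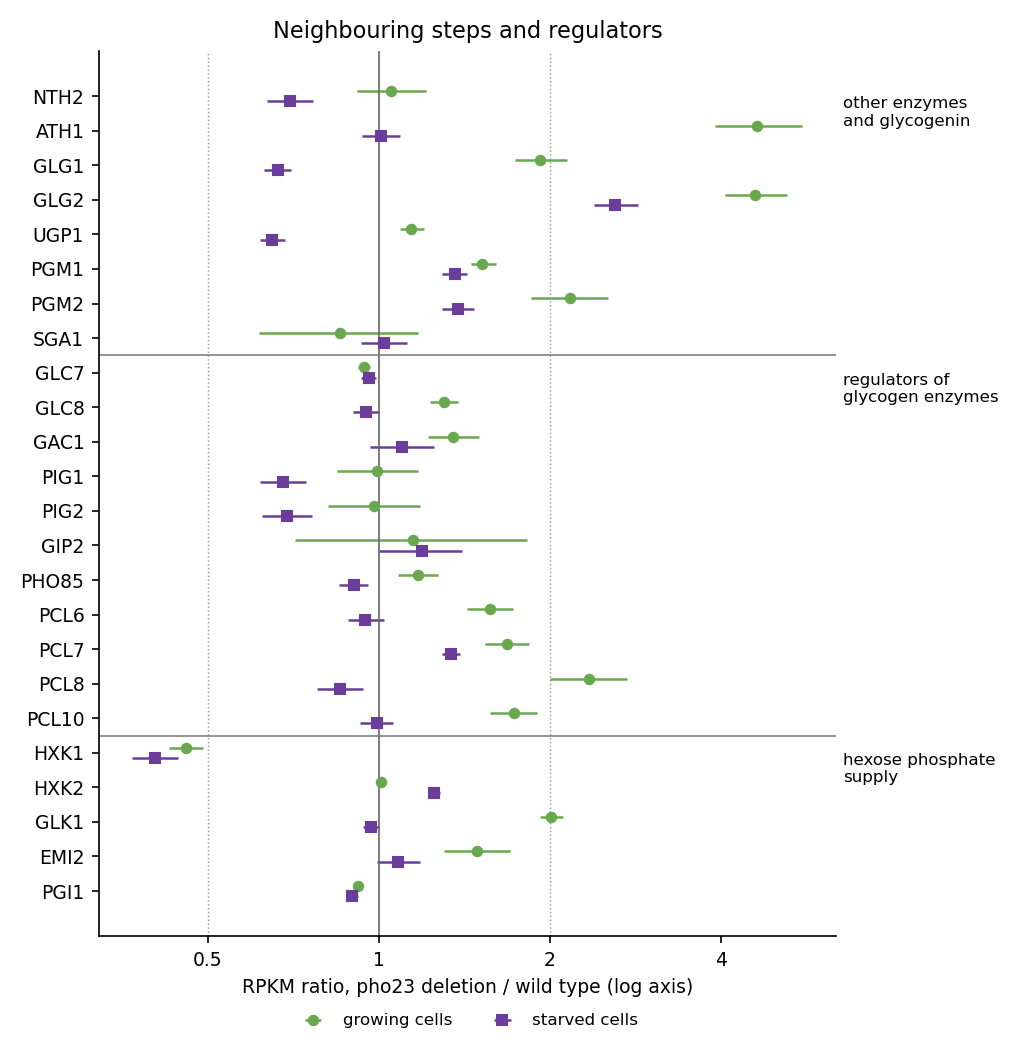
RPKM ratio of the pho23 deletion to wild type (horizontal log axis) for the 24 genes of the enzyme, regulator and hexose phosphate lists, in growing (circles) and starved cells (squares), with 95% counting intervals as bars and dotted lines at 0.5 and 2. GLG2 lies right of 2 and HXK1 left of 0.5 in both conditions.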

How the data were processed

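Total RNA was sequenced in 4 libraries, 1 for each group. The submitters' processing notes list CASAVA 1.8.2, Bowtie2 2.1.0 and the build sacCer3. The authors deposited an RPKM for each ORF. How reads were counted, with which annotation and whether by strand, is not stated in the labels or headers, so antisense and overlapping ORFs are uncertain. None of the 10 genes overlaps another RefSeq gene. All 6678 ORFs were used, and RefSeq R64, the assembly behind sacCer3, gave symbols and lengths for 5997.

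Log2 folds are of RPKM + 1, without further scaling. With 1 library per group no test was run, and genes were called by size alone, at 2-fold where either library compared reached an RPKM of 10. The value of 1 read was taken as the commonest RPKM times length in kb below 0.06. With it, 35.7% to 43.4% of values below 100 reads lay within 0.1 of a whole number, so the depth is rough. Upstream windows were cut from the R64 genome with annotated start codons. The window of 600 bases, the 300 bases printed and the count of ORFs with opposite genotype ratios, with its scalings, were chosen once the data were known. The pseudocount was also set to 0.1 and 5, the minimum RPKM to 30 or dropped, and 3 scalings were applied (median-of-ratios, upper-quartile and equal-sum). The counting rule was checked on simulated counts. Members, lists, motifs and the rule for naming genes were chosen with earlier results of these data known. That rule names all 10 genes and, of each other list, members past 2-fold and up to 4 with the largest fold, and others beyond it were named after their values were seen. A gene of the stress regulator list is not reported here. Work used Python 3.11.15, scipy 1.17.1 and Biopython 1.88.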

Additional observations from a re-analysis of the deposited data

Results flagged for a closer look

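The starved minus the growing genotype log2 fold was -0.80 for TPS1, -1.02 for TPS2, -0.64 for NTH1 and -0.90 for GSY2. These 4 genes were singled out because the deletion library was above wild type in growing cells and below it in starved cells, with both counting intervals off 1. The difference between conditions was not tested, since each side is 1 library. The same difference equals the starvation fold of the deletion minus that of wild type, and its median over all 6034 ORFs was -0.15. The rule that picked the 4 genes already makes their differences negative, so setting them beside that median is no test. By the same rule 13.3% of 5560 ORFs were above wild type in growing and below it in starved cells, and with median-of-ratios scaling TPS1 no longer met it.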

How the results depend on the processing

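Over 50 log2 folds and differences of the 10 genes, 44 kept 1 sign in all 6 settings of pseudocount and scaling. The other 6 lay near 0 or, for the differences of GSY1 and TSL1, moved with the pseudocount. Without the filter, 2 of the 10 were counted between growing genotypes in place of 0 (TSL1 higher, GSY1 lower). With an RPKM of at least 30, 1 was counted between starved genotypes in place of 2 (GPH1 stays), 4 in place of 7 in the starved deletion, and 195 of all ORFs between growing genotypes in place of 328. In each case the change of filter alone sets which ORFs are tested. With higher and lower calls added up, the other settings left the counts of the 10 genes and of all ORFs within 1.5 times. Counts of all ORFs in a single direction moved further. With median-of-ratios scaling, those for starvation in wild type went from 1950 to 1156 higher and from 795 to 1246 lower. In the deletion they went from 1311 to 853 higher and from 514 to 920 lower. The shares of all ORFs called higher or lower after starvation therefore depend on the scaling. No paired analysis was possible because each group has 1 library. Depth limits GSY1 most, with about 55 reads in the growing deletion. The spread between cultures is not measured by these data.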

Other observations

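Protein kinase A restrains Msn2 and Msn4. TPK2, for a catalytic subunit of this kinase, had RPKM values of 18.3 in YPD and 54.5 in SD-N for wild type, and 63.1 and 71.7 for the deletion. Wild type in YPD was the lowest library. The log2 genotype fold of TPK2 was 1.73 growing, above 99.2% of eligible ORFs, and 0.39 starved. TPK3, for another catalytic subunit, was at -0.22 and -0.35. BCY1, the regulatory subunit, had 118 and 235 growing and 148 and 188 starved, a growing log2 fold of 0.99.

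MSN4 was lower in the deletion in both conditions, at 27.3 and 18.7 growing (log2 fold -0.52) and 130 and 79.1 starved (-0.71). MSN2 was at 0.09 and -0.26. After starvation 6 of 10 eligible stress regulators were at least 2-fold higher in wild type, against 32.7% of all eligible ORFs. In the deletion 3 of 10 were, YAK1, MSN4 and HSF1, near the 22.4% of all. RIM15 stayed under the minimum RPKM.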
